A study of Homo sapiens with 9 samples.

Results

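Histone genes were read out of bulk RNA sequencing of human spinal cord organoids (SCOs), three-dimensional cultures grown from WTC, an established induced pluripotent stem cell line, and labelled with the wild-type genotype. In the study's account, WTC clones edited at SOX10 to carry a reporter were used, and several SCOs of a clone were pooled into 1 RNA sample. Within vehicle and within VPA each replicate was a different clone, and the same 3 clones served both conditions. The study also describes SCOs of 3 clones for VPA+Rapamycin. The labels do not name the clone of a library. SCOs were kept for 96 h in 1 of 3 conditions with 3 libraries each: vehicle, which the labels name after the growth factor FGF, VPA (valproic acid, a teratogenic antiepileptic drug that inhibits histone deacetylases) and VPA+Rapamycin, where Rapamycin inhibits the kinase mTOR. The study describes vehicle as FGF alone and VPA as given together with FGF. Libraries with Rapamycin alone were not analysed here. Members were the protein-coding genes whose symbols begin with HIST1H to HIST4H, H1F, H2AF or H3F, which gave 70 of the 31589 genes in the deposited tables. Of these, 56 were replication-dependent (HIST1H to HIST4H: 4 H1, 13 H2A, 16 H2B, 11 H3 and 12 H4 genes) and 14 were replacement histones (4 H1, 7 H2A and 3 H3 genes), and 42 of the 70 lay on chromosome 6 and 14 on chromosome 1.

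Nucleosomes are built from the core histones H2A, H2B, H3 and H4, and linker histones of the H1 family bind the DNA between them. Replication-dependent histone genes are transcribed in S phase, when new chromatin has to be assembled, and their mRNAs end in a conserved stem-loop bound by SLBP in place of a poly(A) tail. Replacement histones are made throughout the cell cycle from ordinary polyadenylated mRNAs, and several replication-dependent genes can also give polyadenylated mRNA, which is known above all from cells that have left the cycle. The libraries were made from RNA held on poly-T beads, so the values below describe mRNA with a poly(A) tail and are not the total mRNA of a replication-dependent gene. In bulk samples, fewer cells of a type and less of an mRNA per cell cannot be told apart.

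The stem-loop was searched for in the GENCODE 29 transcripts of each member because mRNAs that end at it carry no poly(A) tail, whereas those that run past it can. Only the annotated stretch after the stop codon, the 3′ UTR, was searched. The 22 replication-dependent genes whose model ends at the stop codon could therefore give no match. The loop was found in 31 of 56 replication-dependent genes and in 1 of 14 replacement genes, H2AFX. It fell into 7 spellings, shown here 5′ to 3′ as DNA with the 4 bases of the loop in capitals between the 6-base arms of the stem.
16 genes, among them HIST2H2BE, HIST1H2AC, HIST3H2A and HIST1H3H: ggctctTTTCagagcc
5 genes, HIST1H2BC, HIST1H2BD, HIST1H2BF, HIST1H3G and HIST3H3: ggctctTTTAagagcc
5 H4 genes, among them HIST4H4 and HIST1H4H: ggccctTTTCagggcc
3 H4 genes, HIST1H4I, HIST2H4A and HIST2H4B: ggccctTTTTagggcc
HIST1H3E: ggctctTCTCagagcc
HIST1H2AG: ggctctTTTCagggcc
H2AFX: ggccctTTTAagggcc
The spellings that begin ggctct came from H2A, H2B and H3 genes, and of those that begin ggccct all but that of H2AFX came from H4 genes. In HIST2H2BE the loop lay at chr1:149886188-149886203 (GRCh38, minus strand), 56 bases after the stop codon, and the annotated 3′ UTR ran on for another 1729 bases.

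The annotation itself split the replication-dependent genes. In 19 of them a transcript carried the loop and at least 200 bases beyond it, and 15 of these 19 held the polyadenylation signal AATAAA or ATTAAA in the last 50 bases of a transcript. In 12 a loop was followed by fewer than 200 bases, with such a signal in 5. The model of 22 genes, among them HIST1H1C, HIST1H2BK and HIST2H2AC, ended at the stop codon, so that reads from any 3′ UTR were not counted for them, and 3 genes had a 3′ UTR in which no loop of this form was found. All coding transcripts had a single exon in 47 of 56 replication-dependent and 7 of 14 replacement genes.

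Libraries held between 15290436 and 17417478 counts, and 3 counts, taken as the floor, stood for 0.172 to 0.196 CPM, the unit of level used below. CPM are counts relative to the library total, here scaled by TMM factors, which correct for composition, over the 9 libraries. A fold change was called where the adjusted p of the edgeR quasi-likelihood test over all genes of the comparison was at most 0.05. Of the 70 members, 38 had enough counts to be tested in at least 1 comparison (28 replication-dependent and 10 replacement) and 36 in every one. The other 28 replication-dependent genes had 2 to 63 counts over all 9 libraries with a median of 19, and the 4 other replacement genes, H1FNT, H1FOO, H2AFB3 and H3F3C, had 2 to 29. Fold changes of the replication-dependent genes carried standard errors of 0.13 to 0.74 on the log2 scale, so that moderate changes in their weaker members were not detectable at this depth.

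Replacement genes gave nearly all histone reads. Their summed level was 3455, 3301 and 3143 CPM in the vehicle libraries, 3925, 4060 and 3976 CPM with VPA and 4079, 4284 and 3880 CPM with VPA+Rapamycin. The 56 replication-dependent genes together had 136, 139 and 186 CPM with vehicle, 107, 116 and 115 CPM with VPA and 113, 134 and 124 CPM with VPA+Rapamycin. The lowest vehicle sum of the replication-dependent genes lay above the highest sum of either treated group, while the lowest treated sum of the replacement genes lay above the highest vehicle sum. Replication-dependent genes made up 4.47% ± 0.974 (SD, n = 3) of all histone counts with vehicle, 2.74% ± 0.0741 (SD, n = 3) with VPA and 2.94% ± 0.22 (SD, n = 3) with VPA+Rapamycin.

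On a scale per length, CPM per kilobase of the deposited gene length averaged over the 9 libraries, the order of the genes differed from that in CPM. This length is not always the span on the chromosome, and the order depends on it. For H2AFY, at 135333900 to 135399914 on chromosome 5, it is 17730 bases. H1F0 was the highest of the replacement genes at 344 CPM per kb, followed by H2AFX at 235, H1FX at 182 and H3F3A at 164, and the median of the 14 was 67.7. HIST1H2BK, at 18.9 CPM per kb, was the highest replication-dependent gene, ahead of HIST3H2A at 16.6, HIST1H1C at 16.3 and HIST2H2BE at 11.3, and the median of the 56 was 0.611. By gene model, the 19 genes with at least 200 bases past the loop had a median of 1.09 CPM per kb. The median was 0.497 over the 12 with fewer and 0.389 over the 22 whose model ends at the stop codon. Over the 3 genes with a 3′ UTR but no loop found it was 1.08, with a range from 0.621 to 1.32. The ranges of the first 3 kinds overlapped, from 0.0164 to 16.6, from 0.0576 to 10.6 and from 0.0355 to 18.9 CPM per kb, and each held that of the last.

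**Figure D1:**
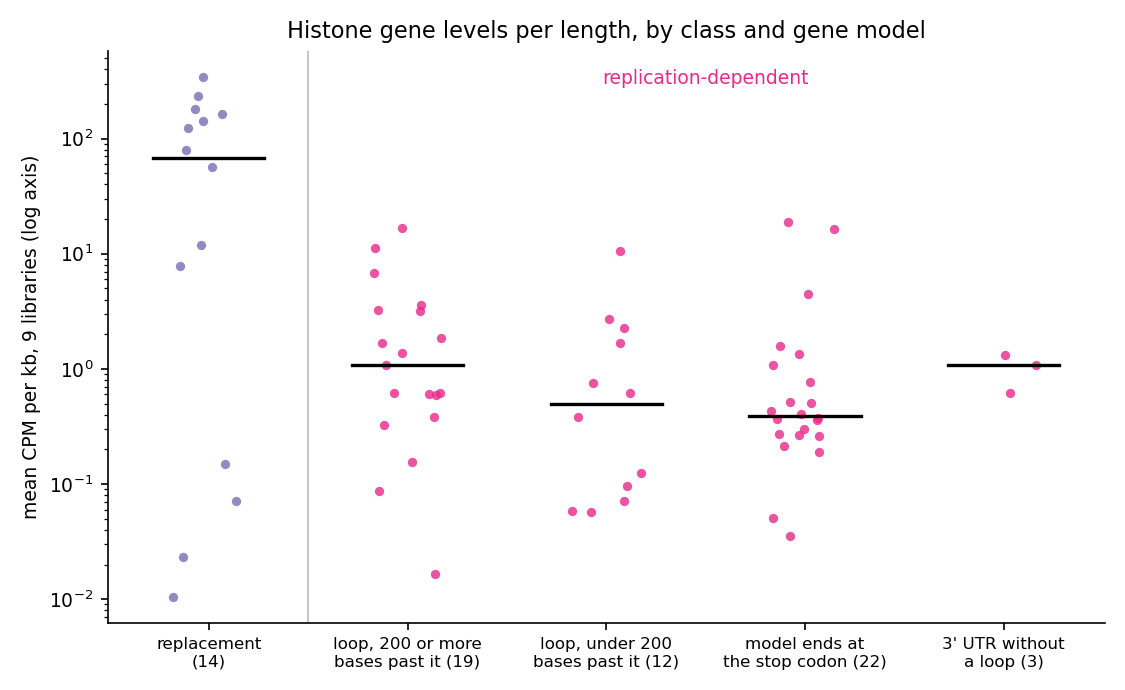
Mean level of each histone gene over the 9 libraries in CPM per kb (log axis), with replacement genes in violet and replication-dependent genes in pink by what their GENCODE 29 model holds at the 3′ end; black bars are medians and the numbers of genes are in parentheses. The replacement median of 67.7 stands above every replication-dependent gene, the highest of which is HIST1H2BK at 18.9.

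With VPA, 4 replacement genes rose and 1 fell of 10 tested, and 3 replication-dependent genes rose and 4 fell of 28 tested. These 12 of 38 members, 31.6%, stood beside 32.1% of all 17360 genes tested, so that the share of histone genes that changed was near the background. By direction, 16.4% of all genes were called higher and 15.7% lower. All 3 VPA libraries lay above all 3 vehicle libraries in 8 of the 38 members and below them in 7, beside 24.5% and 22.9% of all genes. The median log2 fold change was 0.27 over the replacement genes tested and 0.04 over the replication-dependent ones, and 0.00 over all genes.

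The linker histone gene H1F0 encodes H1.0, a replacement H1 that accumulates in cells leaving the cycle. Its level was 684, 495 and 527 CPM in the vehicle libraries, 936, 935 and 932 CPM with VPA and 862, 1019 and 860 CPM with VPA+Rapamycin. Every treated library lay above every vehicle library, and the VPA libraries lay close together, at 934 ± 2.14 CPM (SD, n = 3), against 568 ± 101 CPM (SD, n = 3) with vehicle. H1F0 was 1.64-fold higher with VPA than with vehicle (log2 0.71, SE 0.12, edgeR adjusted p = 0.00135). H1F0 lies at 37805093 to 37807436 on the plus strand of chromosome 22 (GRCh38). The other replacement linker histone tested, H1FX, ranged from 165 to 298 CPM with vehicle and from 273 to 313 CPM with VPA and was not called (log2 0.33, SE 0.17, edgeR adjusted p = 0.164), although it was without vehicle replicate 1 (log2 0.56, edgeR adjusted p = 0.00457) and with no filter on low counts (log2 0.34, edgeR adjusted p = 0.0287).

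Among the H2A variants, H2AFJ, H2AFV and H2AFX rose with VPA and H2AFY2 fell. H2AFJ, which encodes H2A.J, a variant known to accumulate in senescent cells, was the lowest of the replacement genes tested at 22.9, 16.3 and 11.4 CPM with vehicle. It stood at 32.2, 35.9 and 27.3 CPM with VPA, all above the vehicle libraries, a 1.88-fold rise (log2 0.91, SE 0.22, edgeR adjusted p = 0.00888). H2AFV and H2AFZ are the 2 genes of H2A.Z, a variant placed at promoters. H2AFV had 283, 339 and 301 CPM with vehicle and 403, 441 and 418 CPM with VPA, without overlap (log2 0.45, SE 0.10, edgeR adjusted p = 0.00638). H2AFZ had 336, 331 and 347 CPM against 338, 332 and 333 CPM, with overlap (log2 -0.02, SE 0.09, edgeR adjusted p = 0.878). H2AFV thereby gave 47.6% ± 2.65 (SD, n = 3) of the counts of both genes with vehicle and 55.7% ± 1.32 (SD, n = 3) with VPA.

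H2AFX encodes H2A.X, which is phosphorylated around DNA double-strand breaks, and is the replacement gene that keeps a stem-loop, followed by 1044 bases of 3′ UTR. Any H2AFX mRNA that ends at this loop would carry no poly(A) tail and is not covered by these values. It had 349, 342 and 264 CPM with vehicle and 411, 444 and 448 CPM with VPA (log2 0.44, SE 0.12, edgeR adjusted p = 0.0137). The call of H2AFX was lost without VPA replicate 2 (edgeR adjusted p = 0.0644) or VPA replicate 3 (edgeR adjusted p = 0.0607). The macroH2A genes H2AFY and H2AFY2, whose large variants are associated with silent chromatin, were both lower in every VPA library than in any vehicle library. H2AFY2 had 147, 139 and 107 CPM against 100, 106 and 95.1 CPM and was called (log2 -0.38, SE 0.13, edgeR adjusted p = 0.0387), and H2AFY had 213, 232 and 229 CPM against 172, 203 and 185 CPM and was not (log2 -0.27, SE 0.10, edgeR adjusted p = 0.0571). The call of H2AFY2 held in only 1 of 6 fits that left out 1 library, the one without vehicle replicate 3, with edgeR adjusted p from 0.0685 without vehicle replicate 1 to 0.151 without VPA replicate 3, and it was lost with upper-quartile factors (edgeR adjusted p = 0.0597) and with a block for the replicate number (edgeR adjusted p = 0.0525). H2AFY was called without vehicle replicate 1 (edgeR adjusted p = 0.0232) and without vehicle replicate 3 (edgeR adjusted p = 0.0468).

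H3F3A and H3F3B encode the same protein, H3.3, the H3 that is deposited outside S phase. H3F3A had 555, 511 and 479 CPM with vehicle and 499, 496 and 490 CPM with VPA (log2 -0.06, SE 0.09, edgeR adjusted p = 0.643). H3F3B had 568, 665 and 714 CPM with vehicle and 760, 777 and 734 CPM with VPA, all above the vehicle libraries, but was not called (log2 0.22, SE 0.10, edgeR adjusted p = 0.127) except without vehicle replicate 3 (log2 0.30, edgeR adjusted p = 0.016). Vehicle replicate 1 was the lowest vehicle library for H3F3B and the highest for H3F3A. The UNK gene overlaps H3F3B on the other strand with 8.57% of its mean count, and the use of strand in counting is not given in the sources used here.

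**Figure D2:**
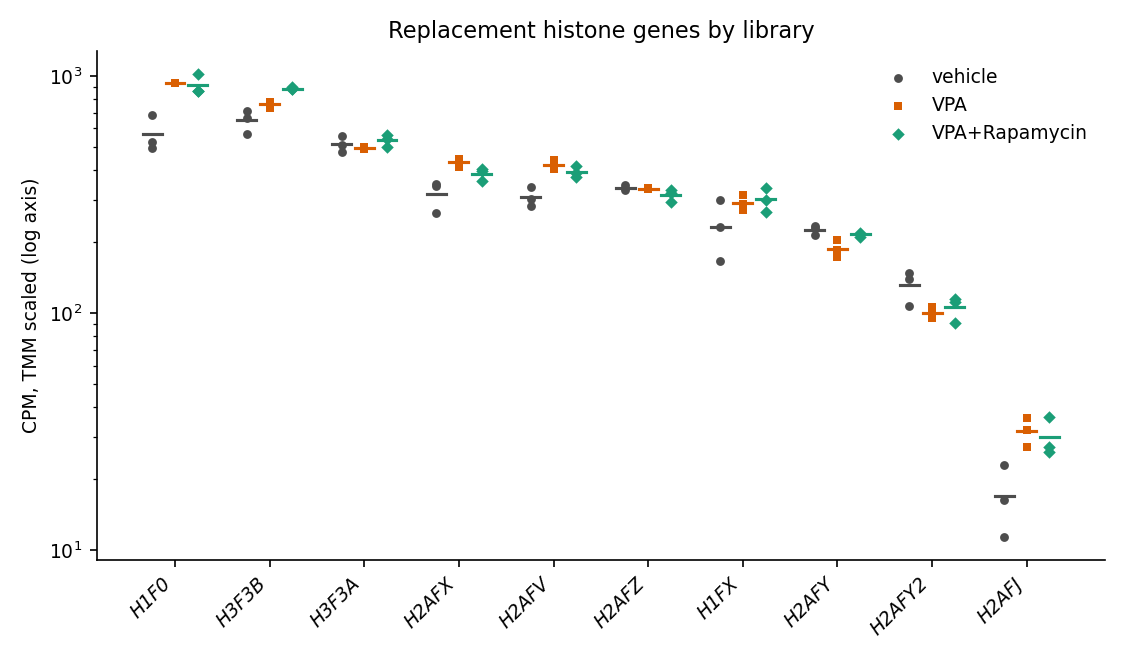
CPM of the 10 replacement histone genes tested in each of the 9 libraries (log axis), ordered by mean level, with horizontal bars at the group means of 3 libraries. H1F0, H2AFJ, H2AFV, H2AFX and H3F3B lie higher in all 3 VPA libraries than in any vehicle library, and H2AFY and H2AFY2 lie lower. Of these, H3F3B and H2AFY were not called.

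HIST2H2BE, an H2B gene at 149884459 to 149886652 on the minus strand of chromosome 1 (GRCh38) and known for a polyadenylated mRNA that reads past its stem-loop, had the highest CPM of the replication-dependent genes and fell most. It had 32.5, 39.9 and 53.2 CPM (550, 604 and 853 counts) with vehicle, 12.8, 12.8 and 14 CPM (214, 208 and 246 counts) with VPA and 18.3, 19.2 and 20.5 CPM (308, 330 and 326 counts) with VPA+Rapamycin. The 3 groups did not overlap, and vehicle replicate 3 was the highest of the 9 libraries. HIST2H2BE was 3.18-fold lower with VPA than with vehicle (log2 -1.67, SE 0.18, edgeR adjusted p = 9.55e-05), and it was called in all 13 alternative fits, with log2 values from -1.82 to -1.46. It made up 27.1% ± 2.73 (SD, n = 3) of all replication-dependent counts with vehicle, 11.7% ± 0.579 (SD, n = 3) with VPA and 15.7% ± 1.2 (SD, n = 3) with VPA+Rapamycin. Without HIST2H2BE, the summed level of the other 55 replication-dependent genes was 99 to 133 CPM with vehicle and 94.4 to 103 CPM with VPA, and the groups overlapped.

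HIST2H2AC, which encodes an H2A, starts 323 bases from HIST2H2BE in the deposited coordinates and is read away from it on the other strand, 1 of 9 such head-to-head pairs among the members. It had 1.3, 1.32 and 0.685 CPM (22, 20 and 11 counts) with vehicle, 3.22, 3.2 and 1.93 CPM (54, 52 and 34 counts) with VPA and 2.08, 1.05 and 0.942 CPM (35, 18 and 15 counts) with VPA+Rapamycin. Unlike its neighbour it was higher in every VPA library than in any vehicle library, 2.51-fold (log2 1.33, SE 0.39, edgeR adjusted p = 0.0242), and only its coding part was counted. The call was lost without VPA replicate 1 (edgeR adjusted p = 0.0905) or VPA replicate 2 (edgeR adjusted p = 0.0946). There were 25, 30.2 and 77.5 HIST2H2BE counts for each HIST2H2AC count in the vehicle libraries and 3.96, 4 and 7.24 with VPA, a description of 1 pair chosen after its values were seen.

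The 2 genes share the stretch between their start sites in RefSeq, which is shown because they moved in opposite directions. It is given on the strand of HIST2H2BE, 5′ to 3′, from RefSeq (GRCh38.p14, chr1:149886683-149886917, minus strand), with capitals for elements known from histone promoters: the box CCAAT, the motif TATAAA and the octamer ATGCAAAT. Both strands were searched, so a match on the strand not shown appears here as its reverse complement.
HIST2H2BE and HIST2H2AC: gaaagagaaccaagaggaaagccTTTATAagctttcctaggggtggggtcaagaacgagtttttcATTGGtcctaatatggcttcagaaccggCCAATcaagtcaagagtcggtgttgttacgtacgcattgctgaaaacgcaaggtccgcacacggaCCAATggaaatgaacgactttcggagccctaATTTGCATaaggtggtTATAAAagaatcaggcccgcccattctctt
A TATAAA stands near each end, at position 24 on the strand of HIST2H2AC and at position 206 on that of HIST2H2BE, with 3 CCAAT between them and the octamer at position 190. In RefSeq promoters, from 250 bases before to 50 after the start, CCAAT was found in 81.2% of 48 matched replication-dependent genes, 75% of 12 matched replacement genes and 34.6% of all 35116 promoters. TATAAA was found in 66.7%, 33.3% and 11.5%, and the octamer in 41.7%, 8.33% and 1.77%. A match describes these letters and no binding.

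**Figure D3:**
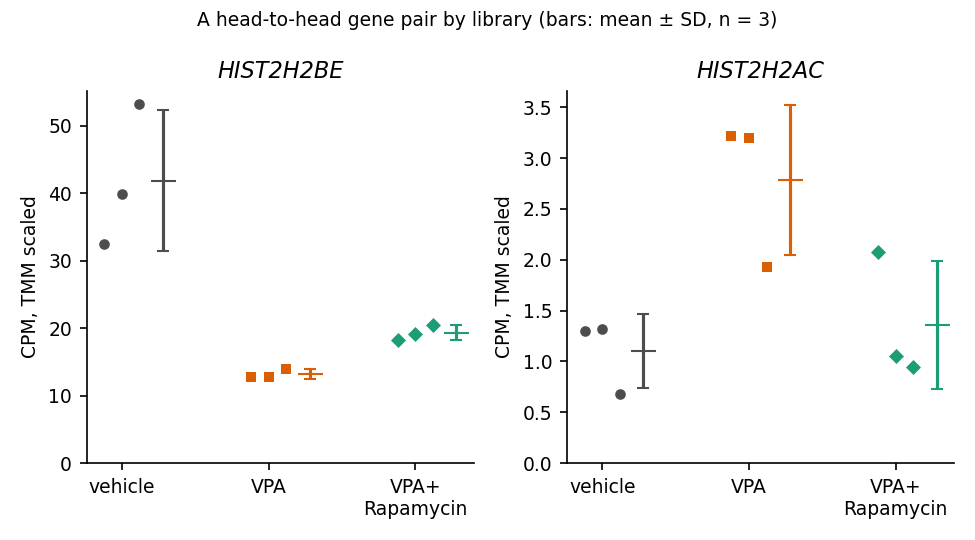
CPM of HIST2H2BE and HIST2H2AC in each library (axes from 0, on different scales), with the mean ± SD of 3 libraries beside the points. HIST2H2BE is lowest in the VPA libraries (12.8 to 14 CPM), and HIST2H2AC is higher there than with vehicle (1.93 to 3.22 CPM against 0.685 to 1.32 CPM) but overlaps with VPA+Rapamycin (0.942 to 2.08 CPM).

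Among the H2A and H2B genes on chromosome 6, HIST1H2AC and HIST1H2BD fell with VPA, and both are known to give polyadenylated mRNA. HIST1H2AC had 12.5, 12.8 and 26.7 CPM with vehicle and 9.42, 7.58 and 9.78 CPM with VPA, without overlap, and vehicle replicate 3 stood apart (log2 -0.96, SE 0.28, edgeR adjusted p = 0.0225). Without vehicle replicate 3 the fall of HIST1H2AC was smaller and still called, at a log2 of -0.50, and it was not called without any 1 of the 3 VPA libraries (edgeR adjusted p = 0.0609 to 0.0931). HIST1H2BD had 11.8, 9.05 and 15.6 CPM against 5.31, 7.52 and 8.59 CPM (log2 -0.78, SE 0.25, edgeR adjusted p = 0.0323), a call lost without vehicle replicate 3 (edgeR adjusted p = 0.0693), VPA replicate 1 (edgeR adjusted p = 0.132) or VPA replicate 2 (edgeR adjusted p = 0.0827). HIST1H2AG ranged from 4.43 to 7.17 CPM with vehicle and from 7.03 to 8.5 CPM with VPA (log2 0.40, SE 0.23, edgeR adjusted p = 0.207). HIST1H2BK ranged from 7.98 to 8.28 CPM and from 5.57 to 9.12 CPM (log2 -0.06, SE 0.22, edgeR adjusted p = 0.864).

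The H3 genes HIST1H3E and HIST1H3H, which encode H3.1, moved in opposite directions. HIST1H3E had 6.68, 7.6 and 7.6 CPM with vehicle and 3.22, 3.27 and 4.78 CPM with VPA (log2 -0.96, SE 0.24, edgeR adjusted p = 0.0107). HIST1H3H had 2.84, 2.91 and 2.93 CPM with vehicle and 7.27, 4.68 and 3.98 CPM with VPA (log2 0.87, SE 0.29, edgeR adjusted p = 0.0372). Vehicle and VPA libraries did not overlap for either gene, and the stem-loop of each is among those printed above. The call of HIST1H3E was lost without VPA replicate 1 (edgeR adjusted p = 0.0526) or VPA replicate 2 (edgeR adjusted p = 0.0546). That of HIST1H3H was lost without VPA replicate 1 (log2 0.58, edgeR adjusted p = 0.192), without vehicle replicate 2 (edgeR adjusted p = 0.091) and without VPA replicate 2 (edgeR adjusted p = 0.0685), as well as with a block for the replicate number (edgeR adjusted p = 0.0526).

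HIST1H1C, the gene of linker histone H1.2, rose alongside H1F0. It had 8.57, 5.48 and 7.91 CPM with vehicle and 12.1, 9.92 and 12.7 CPM with VPA, all above the vehicle libraries (log2 0.65, SE 0.21, edgeR adjusted p = 0.0356). The call was lost without vehicle replicate 2 (log2 0.48, edgeR adjusted p = 0.131) and without any 1 of the 3 VPA libraries (edgeR adjusted p = 0.0534 to 0.126).

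**Figure D4:**
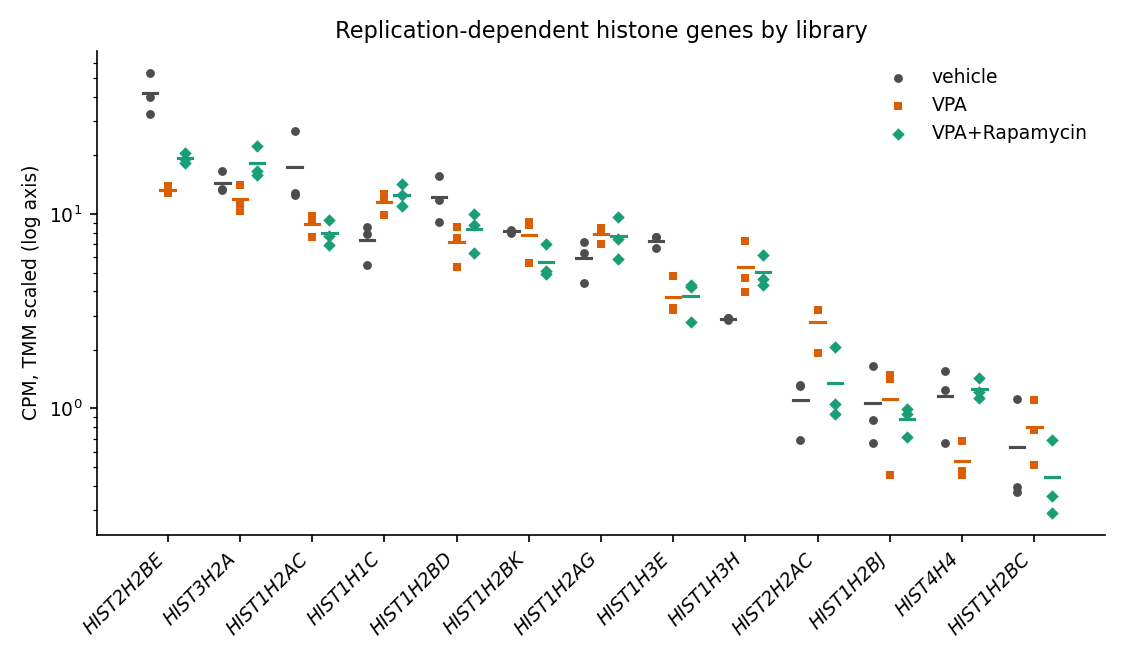
CPM of 13 replication-dependent histone genes in each of the 9 libraries (log axis), ordered by mean level, with horizontal bars at the group means of 3 libraries. HIST2H2BE separates all 3 groups, with vehicle at 32.5 CPM and above and VPA at 14 CPM and below, whereas HIST1H2BC and HIST1H2BJ, near 1 CPM, overlap between groups.

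The 8 replication-dependent genes listed as known to give polyadenylated mRNA (HIST1H1C, HIST1H2AC, HIST1H2BC, HIST1H2BD, HIST1H2BJ, HIST1H2BK, HIST2H2BE and HIST4H4) accounted for most of the reads of their class with vehicle. Their sum was 77.7, 77 and 114 CPM with vehicle, 51.4, 49.8 and 52 CPM with VPA and 49.6, 58.6 and 61.1 CPM with VPA+Rapamycin. Every vehicle library thus lay above every treated one. Of this sum, HIST2H2BE alone gave 32.5 to 53.2 CPM with vehicle, 12.8 to 14 CPM with VPA and 18.3 to 20.5 CPM with VPA+Rapamycin. The separation of the sums therefore does not describe the other listed genes. With VPA, 1 of the 8 was called higher and 3 lower, with a median log2 of -0.42, which is 50% of the list beside 32.1% of all genes (16.4% higher and 15.7% lower). The other 48 replication-dependent genes summed to 58.1 to 71.7 CPM with vehicle, 55.7 to 65.7 CPM with VPA and 63 to 75.6 CPM with VPA+Rapamycin, and the groups overlapped. HIST4H4, an H4 gene at 14767999 to 14771131 on chromosome 12 (GRCh38), had 1.24, 0.661 and 1.56 CPM with vehicle, 0.477, 0.678 and 0.455 CPM with VPA and 1.13, 1.22 and 1.44 CPM with VPA+Rapamycin and was not called in any comparison (with VPA, log2 -1.11, SE 0.50, edgeR adjusted p = 0.111). HIST1H2BC and HIST1H2BJ had 5 to 19 and 8 to 28 counts in a library and were not called where they were tested.

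By gene model, 16 of the 19 genes with at least 200 bases past the loop were tested with VPA, of which 1 was called higher and 3 lower, with a median log2 of -0.36, which is 25% beside 32.1% of all genes. By family, the summed level of the replication-dependent H2B genes was 70.4 to 101 CPM with vehicle and 41.2 to 47.2 CPM with VPA, and that of the H1 genes 7.4 to 10.5 CPM and 12.5 to 14.9 CPM. The sums of these 2 families did not overlap between the groups and went in opposite directions, and 1 gene weighed heavily in each. HIST2H2BE had 32.5 to 53.2 CPM with vehicle and 12.8 to 14 CPM with VPA. HIST1H1C had 5.48 to 8.57 CPM with vehicle and 9.92 to 12.7 CPM with VPA. The 2 sums therefore do not describe the other genes of these families. The H2A sum was 33.6 to 52.7 CPM against 32.7 to 36.8 CPM, the H3 sum 11.3 to 13.1 CPM against 11.6 to 13.6 CPM and the H4 sum 8.46 to 10.3 CPM against 7.03 to 9.49 CPM, all overlapping.

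The comparison of VPA+Rapamycin with VPA asks what Rapamycin adds in the presence of VPA. Of 10 replacement genes 1 rose and none fell, and of 28 replication-dependent genes 2 rose and none fell, which makes 3 of 38 members or 7.89%, beside 6.74% of all 17317 genes tested (3.01% higher and 3.73% lower). The counts of 0 lower are those of edgeR. At an unadjusted p under 0.05 there was 1 lower gene in each class, and DESeq2 called 0 lower in both. All VPA+Rapamycin libraries lay above all VPA libraries in 7 of 38 members and below them in 3, beside 12.1% and 13.4% of all genes. The comparison shares its VPA libraries with the one above. The median log2 fold change was 0.01 over the replacement genes, 0.08 over the replication-dependent genes and 0.00 over all genes.

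HIST2H2BE rose from 12.8 to 14 CPM with VPA to 18.3 to 20.5 CPM with VPA+Rapamycin, 1.47-fold (log2 0.55, SE 0.13, edgeR adjusted p = 0.0117). The call of HIST2H2BE was lost without VPA replicate 1 (edgeR adjusted p = 0.0553), VPA replicate 2 (edgeR adjusted p = 0.0621) or VPA+Rapamycin replicate 3 (edgeR adjusted p = 0.0579). HIST3H2A, an H2A gene at 228456979 to 228457873 on the minus strand of chromosome 1 (GRCh38), had 13.2, 13.5 and 16.6 CPM with vehicle, 10.4, 11.2 and 14.1 CPM with VPA and 16.6, 22.3 and 15.8 CPM with VPA+Rapamycin. Its VPA+Rapamycin libraries lay above all VPA libraries (log2 0.62, SE 0.16, edgeR adjusted p = 0.0248), and the call was lost without VPA replicate 1 (edgeR adjusted p = 0.116), VPA replicate 2 (edgeR adjusted p = 0.106) or VPA+Rapamycin replicate 2 (log2 0.45, edgeR adjusted p = 0.115). In 1 fit of all 9 libraries neither HIST2H2BE (edgeR adjusted p = 0.151) nor HIST3H2A (edgeR adjusted p = 0.142) was called.

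H3F3B was the replacement gene that rose, from 734 to 777 CPM with VPA to 877, 895 and 877 CPM with VPA+Rapamycin (log2 0.23, SE 0.07, edgeR adjusted p = 0.0494). Its adjusted p lay at the threshold, and the call was lost in 5 of the 6 fits that left out 1 library, all but that without VPA+Rapamycin replicate 2 (edgeR adjusted p = 0.0832 without VPA+Rapamycin replicate 1, 0.125 without VPA+Rapamycin replicate 3 and 0.133 to 0.147 without any 1 VPA library), and when replicate number was added to the fit as a block (edgeR adjusted p = 0.107). H1F0, H2AFJ and H2AFV, which were higher with VPA than with vehicle, had log2 values of -0.03 (SE 0.08), -0.09 (SE 0.13) and -0.09 (SE 0.07) between VPA+Rapamycin and VPA and were not called. HIST2H2AC had the lowest log2 value, -1.03 (SE 0.38, edgeR adjusted p = 0.115), with 0.942 to 2.08 CPM against 1.93 to 3.22 CPM, and was called without VPA+Rapamycin replicate 1 (log2 -1.47, edgeR adjusted p = 0.0357).

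The last comparison sets VPA+Rapamycin against vehicle. Of the histone genes, 4 of 10 replacement genes rose and none fell, and 2 of 26 replication-dependent genes rose and 3 fell. That is 9 of 36 members or 25%, beside 19.0% of all 17383 genes tested (9.81% higher and 9.22% lower). At an unadjusted p under 0.05 no replacement gene was lower, and DESeq2 called 0 lower. The libraries of both groups did not overlap in 7 members that were above and 6 that were below, of 36, beside 19.7% and 18.6% of all genes. The median log2 was 0.32 over the replacement genes, 0.03 over the replication-dependent genes and 0.00 over all genes. The vehicle and VPA+Rapamycin libraries of this comparison also served in the other comparisons, so its calls are not independent of theirs.

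H1F0 (log2 0.68, SE 0.13, edgeR adjusted p = 0.00699) and HIST2H2BE (log2 -1.12, SE 0.18, edgeR adjusted p = 0.00234) were called here in all 6 fits that left out 1 library. H2AFJ (log2 0.82, SE 0.23, edgeR adjusted p = 0.0308), H2AFV (log2 0.36, SE 0.11, edgeR adjusted p = 0.038) and H3F3B (log2 0.44, SE 0.11, edgeR adjusted p = 0.0168) rose as well. Each of H2AFJ, H2AFV and H3F3B lost its call without vehicle replicate 2 (edgeR adjusted p = 0.0954, 0.0587 and 0.0587) and without any 1 VPA+Rapamycin library (edgeR adjusted p = 0.0545 to 0.156), and H2AFV also without vehicle replicate 1 (edgeR adjusted p = 0.0576). HIST1H2AC had 6.94, 7.67 and 9.3 CPM with VPA+Rapamycin, below all vehicle libraries (log2 -1.12, SE 0.29, edgeR adjusted p = 0.0214), and lost its call without VPA+Rapamycin replicate 1 (edgeR adjusted p = 0.0953) or replicate 2 (edgeR adjusted p = 0.0796). HIST1H3E had 2.79, 4.3 and 4.21 CPM (log2 -0.95, SE 0.24, edgeR adjusted p = 0.0196), lost without vehicle replicate 2 (edgeR adjusted p = 0.066), VPA+Rapamycin replicate 1 (edgeR adjusted p = 0.0825) or VPA+Rapamycin replicate 3 (edgeR adjusted p = 0.0513).

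HIST1H1C had 11, 14.2 and 12.5 CPM with VPA+Rapamycin, above the highest vehicle library at 8.57 CPM (log2 0.77, SE 0.21, edgeR adjusted p = 0.027), and the call was lost without vehicle replicate 2 (edgeR adjusted p = 0.0987) or any 1 VPA+Rapamycin library (edgeR adjusted p = 0.057 to 0.11). HIST1H3H, at 4.33 to 6.16 CPM against 2.84 to 2.93 CPM, was called (log2 0.80, SE 0.25, edgeR adjusted p = 0.0481) but in none of the 6 fits that left out 1 library (edgeR adjusted p = 0.0546 without vehicle replicate 3 to 0.197 without VPA+Rapamycin replicate 2), nor by DESeq2 (adjusted p = 0.068) or with a block for the replicate number (edgeR adjusted p = 0.0526). H2AFX (log2 0.28, SE 0.12, edgeR adjusted p = 0.133), H2AFY2 (log2 -0.31, SE 0.14, edgeR adjusted p = 0.151) and HIST2H2AC (log2 0.30, SE 0.46, edgeR adjusted p = 0.695) were not called. H2AFY2 was called without vehicle replicate 3 (edgeR adjusted p = 0.0151), and H1FX, not called as fitted, was called without vehicle replicate 1 (edgeR adjusted p = 0.0128), with no filter on low counts (edgeR adjusted p = 0.0416) and with a block for the replicate number (edgeR adjusted p = 0.0338).

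**Figure D5:**
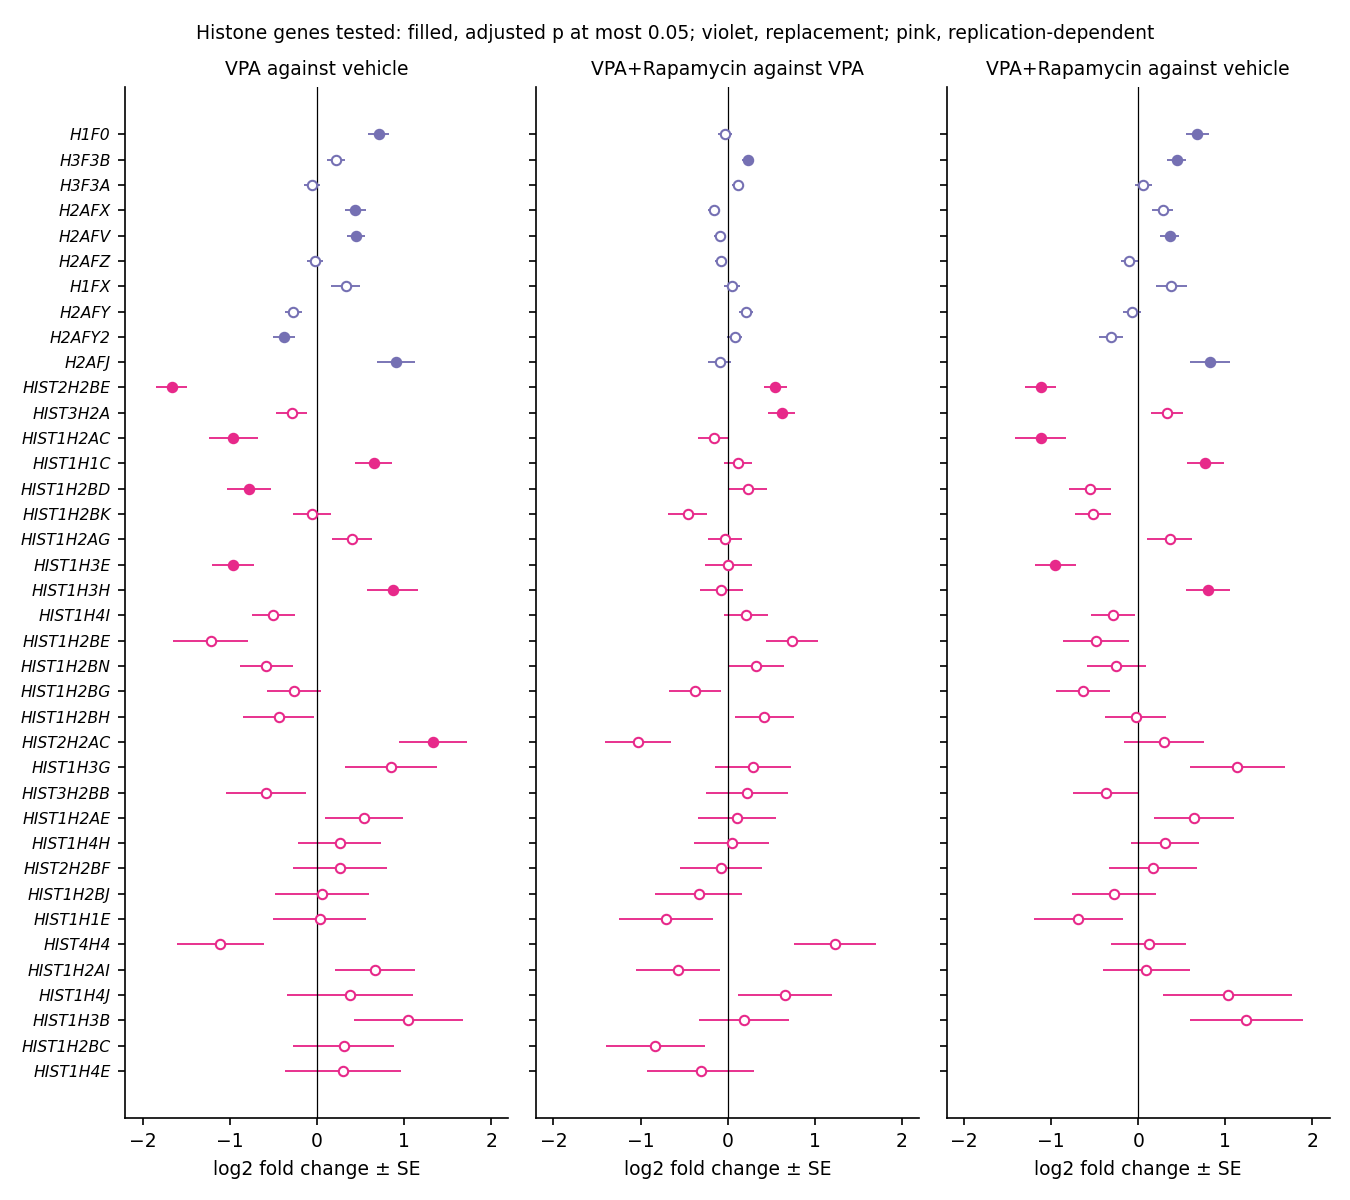
Log2 fold change ± SE from edgeR of the 38 histone genes tested, for each comparison of 3 against 3 libraries, with replacement genes in violet and replication-dependent genes in pink, each ordered by mean CPM; filled points have an adjusted p at most 0.05. HIST2H2BE is the lowest point with VPA (-1.67) and a filled point in all 3 panels, and the right and left panels share their vehicle libraries.

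Genes that make and process histone mRNA changed in small number. Of 13 tested, SLBP and ERI1 rose with VPA and none fell, 15.4% beside 32.1% of all genes. At an unadjusted p under 0.05 edgeR had 2 lower and DESeq2 called 0 lower. SLBP, whose protein binds the stem-loop, had 42.9, 48.7 and 44.9 CPM with vehicle, 79, 83.8 and 67.1 CPM with VPA and 72, 59.4 and 60.9 CPM with VPA+Rapamycin. Its treated libraries lay above all vehicle libraries, 1.68-fold with VPA (log2 0.75, SE 0.12, edgeR adjusted p = 0.00106) and 1.41-fold with VPA+Rapamycin (log2 0.49, SE 0.12, edgeR adjusted p = 0.0175). ERI1, the exonuclease that trims and degrades histone mRNA ends, had 30, 27.3 and 32.7 CPM with vehicle and 39.6, 43.2 and 41.3 CPM with VPA (log2 0.46, SE 0.12, edgeR adjusted p = 0.0141). LSM11 of the U7 particle (log2 -0.31, SE 0.12, edgeR adjusted p = 0.0739) and HINFP, an activator of H4 genes (log2 -0.34, SE 0.14, edgeR adjusted p = 0.0755), were not called. The count of 2 became 1 without vehicle replicate 2, VPA replicate 2 or VPA replicate 3, and 4 without vehicle replicate 1.

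With Rapamycin added to VPA, edgeR called none of the 13 (1 without VPA+Rapamycin replicate 1), DESeq2 called 0, and 2 had an unadjusted p under 0.05. SLBP (log2 -0.25, SE 0.10, edgeR adjusted p = 0.124), ERI1 (log2 -0.24, SE 0.10, edgeR adjusted p = 0.151), LSM10 of the U7 particle (log2 -0.17, SE 0.12) and CPSF2 of the cleavage complex (log2 -0.10, SE 0.08) had the smallest p. Against vehicle, SLBP was the 1 gene called with VPA+Rapamycin, a call lost without VPA+Rapamycin replicate 1 or 3, and CPSF3, the nuclease that cuts histone pre-mRNA, had a log2 of 0.32 (SE 0.11, edgeR adjusted p = 0.0633). LSM11 (log2 -0.30, SE 0.12) and CASP8AP2, a component of the histone locus body (log2 0.34, SE 0.15), were not called there.

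Of 27 histone chaperones and exchangers, 6 rose and 2 fell with VPA, 29.6% beside 32.1% of all genes. ASF1B, which hands H3 and H4 to the replication machinery, had 48.1, 48.6 and 29.4 CPM with vehicle and 70.6, 80.3 and 76.4 CPM with VPA (log2 0.85, SE 0.17, edgeR adjusted p = 0.00392). CHAF1B, a subunit of the CAF-1 complex that assembles nucleosomes on replicated DNA, had 23.3, 23.7 and 19.6 CPM against 35.2, 36.3 and 40.5 CPM (log2 0.75, SE 0.13, edgeR adjusted p = 0.00167). All VPA libraries were above all vehicle libraries for both. ATRX, which deposits H3.3 with DAXX, had 218, 259 and 284 CPM with vehicle against 177, 177 and 173 CPM with VPA (log2 -0.54, SE 0.11, edgeR adjusted p = 0.00425). UBN2, of the HIRA complex that also places H3.3, had 75, 86.9 and 96.3 CPM against 60.4, 50.5 and 59.4 CPM (log2 -0.61, SE 0.13, edgeR adjusted p = 0.00445). Over the fits that left out 1 library, the 8 calls ranged from 5, without VPA replicate 1 or VPA replicate 2, to 12.

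With Rapamycin added to VPA, 4 of the 27 fell and none rose by edgeR, 14.8% beside 6.74% of all genes (3.73% lower), and DESeq2 called 5 lower and 0 higher, with 1 higher at an unadjusted p under 0.05. They were SSRP1 of the FACT complex (log2 -0.29, SE 0.07, edgeR adjusted p = 0.0154), ASF1B (log2 -0.36, SE 0.09, edgeR adjusted p = 0.0198), HAT1, which acetylates newly made H4 (log2 -0.35, SE 0.09, edgeR adjusted p = 0.0206), and the H3 and H4 chaperone NASP (log2 -0.25, SE 0.07, edgeR adjusted p = 0.0399). The 4 calls became 0 without VPA replicate 2 and in the fit of all 9 libraries, 1 without VPA+Rapamycin replicate 3, and 2 without VPA replicate 1, VPA replicate 3 or VPA+Rapamycin replicate 2. The highest count in a fit that left out 1 library was 5. Against vehicle, CHAF1B rose with VPA+Rapamycin (log2 0.49, SE 0.13, edgeR adjusted p = 0.0256) and ATRX fell (log2 -0.55, SE 0.13, edgeR adjusted p = 0.015), and RBBP4 (log2 -0.27, SE 0.10) and ASF1B (log2 0.48, SE 0.18) were not called. These 2 calls became 0 without vehicle replicate 2 or VPA+Rapamycin replicate 2, 1 without VPA+Rapamycin replicate 1 or 3, and 4 to 5 without vehicle replicate 3 or 1.

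Of 23 S-phase genes, 13 rose and none fell with VPA, 56.5% beside 32.1% of all genes. DESeq2 called 15 higher and 0 lower, and none was lower at an unadjusted p under 0.05. The median log2 of the list was 0.46. CCNE1, the cyclin that drives entry into S phase, had 9.34, 12.4 and 7.29 CPM with vehicle and 20.7, 24.2 and 23.4 CPM with VPA (log2 1.23, SE 0.19, edgeR adjusted p = 0.000901). The catalytic subunit of the priming polymerase, POLA1 (log2 0.84, SE 0.13, edgeR adjusted p = 0.00075), the maintenance methylation factor UHRF1 (log2 0.69, SE 0.12, edgeR adjusted p = 0.00172) and the helicase subunit MCM6 (log2 0.48, SE 0.10, edgeR adjusted p = 0.00444) rose with it. The summed level of the list was 1691 to 2194 CPM with vehicle, lowest in vehicle replicate 3, and 2522 to 2702 CPM with VPA. That of the replication-dependent histone genes, which covers only mRNA with a poly(A) tail, was 136 to 186 CPM, highest in vehicle replicate 3, and 107 to 116 CPM. Without HIST2H2BE the histone sum was 99 to 133 CPM with vehicle and 94.4 to 103 CPM with VPA, and the groups overlapped. Over the fits that left out 1 library, the 13 calls ranged from 8, without VPA replicate 2, to 16.

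Of the same 23 genes, 7 fell between VPA and VPA+Rapamycin and none rose, 30.4% beside 6.74% of all genes. DESeq2 called 7 lower and 0 higher, and none was higher at an unadjusted p under 0.05. CCNA2, cyclin A2, had 150, 150 and 152 CPM with VPA and 121, 110 and 118 CPM with VPA+Rapamycin (log2 -0.37, SE 0.07, edgeR adjusted p = 0.00449). The helicase factors GINS1 (log2 -0.41, SE 0.09, edgeR adjusted p = 0.00893) and MCM3 (log2 -0.35, SE 0.08, edgeR adjusted p = 0.0119) and the loading factor CDC6 (log2 -0.47, SE 0.11, edgeR adjusted p = 0.0166) fell as well. The 7 calls became 1 without VPA replicate 2, 3 without VPA+Rapamycin replicate 2, 2 without VPA+Rapamycin replicate 3 and 0 in the fit of all 9 libraries.

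Against vehicle, 4 S-phase genes rose and 1 fell with VPA+Rapamycin, 21.7% beside 19.0% of all genes and thus near the background. CCNE1 (log2 1.11, SE 0.20, edgeR adjusted p = 0.0041), UHRF1 (log2 0.54, SE 0.13, edgeR adjusted p = 0.0154) and POLA1 (log2 0.57, SE 0.14, edgeR adjusted p = 0.0188) were among those that rose, and CCNA2 fell (log2 -0.39, SE 0.10, edgeR adjusted p = 0.0207). The 5 calls became 3 without vehicle replicate 2, 2 without VPA+Rapamycin replicate 2 or replicate 3, and 1 without VPA+Rapamycin replicate 1. They became 8 in the fit of all 9 libraries, and the highest count in a fit that left out 1 library was 7.

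Some markers of the cells that SCOs hold moved with the conditions. The 5 neural progenitor markers summed to 3175 to 3341 CPM with vehicle, 2849 to 2889 CPM with VPA and 2679 to 3125 CPM with VPA+Rapamycin. VIM weighed heavily in this sum, with a mean of 1810 CPM with vehicle and 1372 CPM with VPA. The means of SOX2 were 272 and 277 CPM, of PAX6 312 and 308 CPM, of NES 783 and 797 CPM and of SOX1 102 and 120 CPM. The lower sum with VPA therefore does not describe these other markers. The 5 neuron markers summed to 895 to 1524 CPM, 719 to 801 CPM and 770 to 814 CPM, with 4 of 5 lower with VPA, and vehicle replicate 3 was the highest library. The 4 neural crest markers summed to 131 to 187, 115 to 160 and 156 to 192 CPM with SOX10 near 0 with VPA (0.298 to 0.616 CPM), and the 5 mesenchyme markers to 132 to 286, 535 to 686 and 237 to 360 CPM, with PRRX1 at 0 in 3 libraries. With VPA, 3 of 4 neural crest markers and 1 of 5 progenitor markers were called lower and 2 of 5 mesenchyme markers higher, and with VPA+Rapamycin against VPA 2 neuron and 2 neural crest markers were called higher and 4 mesenchyme markers and LIN28A lower. With VPA+Rapamycin against vehicle, 3 of 5 neuron markers and 1 of 4 neural crest markers were called lower. The lowest log2 among the neural crest markers was -2.97 there, so their sum does not describe each of them. Of all genes, 32.1% were called with VPA, 6.74% between VPA+Rapamycin and VPA and 19.0% between VPA+Rapamycin and vehicle. The pluripotency genes POU5F1 and NANOG stayed at or under 0.813 CPM in all libraries, and LIN28A stood between 83.9 and 244 CPM. Of 6 testis-type histone genes, HIST3H3, H1FNT and H1FOO had 7, 29 and 2 counts over the 9 libraries, and the other 3 were not analysed here. The part of these shifts in cell makeup in the histone results was not tested.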

How the data were processed

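Per the labels, mRNA was purified on poly-T beads and primed with random hexamers. The submitters' processing notes name HISAT2 2.0.5 and featureCounts 1.5.0-p3. Gene counts, whole reads per gene without normalization, were deposited by the authors in 1 table per pair of conditions, with GRCh38 coordinates that match GENCODE 29 for all 70 members. The lowest total of a gene in a table is 2 counts, and for 402 genes a library outside their tables was set to 0. The authors' normalized values, FPKM, fold changes and p-values (36 other per-sample columns and the results of their comparisons) were not used.

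Each table was fitted in edgeR 4.0.16 (R 4.3.3) with TMM factors, filterByExpr, a quasi-likelihood test and Benjamini-Hochberg adjustment over all genes, 3 against 3 libraries and no covariate. The fit was tested on simulated data. Alternatives were DESeq2 1.42.0, RLE and upper-quartile factors, no filter, at least 10 counts in every library, 1 fit of all 9 libraries, the replicate number as a block, and leaving out each library. Replicates of a group differed by more than sampling noise (chi-square per gene 4.63 to 37.6). The study describes replicates as pools of SCOs from different clones of 1 line, which the labels do not state, so p-values measure the spread between these libraries.

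Named were every replacement gene tested, replication-dependent genes called in any comparison, the 8 highest in CPM, 8 known to give polyadenylated mRNA and the 4 genes of smallest p in each of 3 lists. HIST1H2BF, HIST1H3G, HIST3H3, HIST1H4H, HIST1H4I, HIST2H4A and HIST2H4B are named for their stem-loops alone. Members and lists were chosen with earlier results of these data known. Promoters were matched for 60 members. Of 87 coding GENCODE 29 genes that fit the rule, 17 were not analysed here. HIST2H2AA3 and HIST2H2AA4, and HIST2H4A and HIST2H4B, are near-identical copies, and their counts are uncertain. AL353759.1 overlaps HIST1H2BD on the other strand with 4.46% of its mean count, and HIST1H2AL lies inside HIST1H2BN.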

Additional observations from a re-analysis of the deposited data

How the results depend on the processing

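Of the 24 calls of named histone genes over the 3 comparisons, 6 held in all 13 alternatives, namely H1F0 and HIST2H2BE with VPA and with VPA+Rapamycin against vehicle and H2AFJ and H2AFV with VPA against vehicle, and none changed direction. Of 44 values not called, 6 were called in some alternative. The count of replacement genes called lower with VPA, 1 as reported, was 0 with upper-quartile factors and 2 in 1 fit of all 9 libraries. With Rapamycin added to VPA, the 2 replication-dependent genes called higher became 0 in the fit of all 9 libraries, and the 1 replacement gene called higher became 0 there and with RLE factors. For VPA+Rapamycin against vehicle, the 2 replication-dependent genes called higher became 1 with DESeq2 and 1 with no filter on low counts. The cause was not tested.

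Same-numbered libraries share a code across the conditions. The study describes 1 clone for each replicate, but the codes are not its clone names, so that the code may mark the clone without the labels saying so. Deviations of same-numbered libraries correlated at -0.0584 to 0.0423 for VPA with vehicle, -0.0211 to 0.0553 for VPA+Rapamycin with VPA and 0.0572 to 0.146 for VPA+Rapamycin with vehicle, where all 3 were positive. Only that of replicate 3 for VPA+Rapamycin with vehicle, 0.146, passed 0.1, and the reported fits have no block. In fits with a replicate block, the replacement gene lower with VPA and the one higher between VPA+Rapamycin and VPA became 0, and the replication-dependent genes higher between VPA+Rapamycin and vehicle became 1. The other counts of histone genes stayed within 1.5 times.

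Leaving out 1 library moved the counts with VPA to 0 to 3 replication-dependent genes higher and 1 to 5 lower, and 3 to 5 replacement genes higher and 0 to 2 lower. For VPA+Rapamycin against VPA they were 0 to 2 and 0 to 1 replication-dependent genes higher and lower, and 0 to 1 and 0 to 0 replacement genes. For VPA+Rapamycin against vehicle they were 0 to 1 and 1 to 3 replication-dependent genes, and 1 to 4 and 0 to 1 replacement genes. With VPA, the replication-dependent genes called fell to 0 higher and 1 lower without VPA replicate 1 or VPA replicate 2.

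Depth limits the replication-dependent genes most, of which 29 of 56 had a mean under 10 counts in a library. Other scaling factors shifted the median of all genes by at most 0.033 on the log2 scale.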
